A study of Mus musculus with 6 samples.

Results

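The haem pathway genes described here were 8 genes for enzymes of haem synthesis (Alas1, Alas2, Alad, Uros, Urod, Cpox, Ppox and Fech) and Hmox1, which encodes the inducible haem oxygenase. They were taken by their gene names on the array, as 12 probes of 55681, and stand for 9 of the 22133 genes tested. The comparison was between an Mi2β-specific siRNA (3 arrays, called knockdown) and a non-targeting siRNA (3 arrays, called control) in G1E-ER-GATA-1 cells. These are mouse erythroid progenitors without GATA-1 of their own, and all 6 samples carried GATA-1 fused to the oestrogen receptor's ligand-binding domain and were treated with oestradiol for 24 h, so the knockdown was set against maturing cells and no sample without oestradiol was compared. The siRNA was delivered by nucleofection at 0 h and 24 h, oestradiol was added at 24 h and RNA was taken at 48 h. Nothing in the labels shows whether the 3 replicates were grown as separate cultures, so the spread behind the p-values may be technical.

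Haem is made by a chain of enzymes that begins and ends in mitochondria and passes through the cytosol. The first step joins glycine and succinyl-CoA and is catalysed by aminolevulinate synthase, of which Alas1 encodes the form found in most cells and Alas2 the erythroid form. Maturing red cell precursors make large amounts of haem for haemoglobin, and Alas2 is a known target of GATA-1. Haem oxygenase opens the ring and releases its iron.

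The 2 synthase genes also differ in the sequence around their starts, and the windows of Alas1 and Alas2 are shown because these were the members past the test. They are RefSeq sequences of GRCm38.p6, from 250 bases before the annotated start to 50 after it, read 5′ to 3′ on the gene's strand. Capitals mark matches on either strand to a GATA-factor motif (GATA with A or T before it and A or G after it) and to the motif of the factor NRF1 (GCGCA, any base, then GCGC). Positions count from 1 at the start, with no 0.
Alas2, chrX:150547167-150547466, plus strand: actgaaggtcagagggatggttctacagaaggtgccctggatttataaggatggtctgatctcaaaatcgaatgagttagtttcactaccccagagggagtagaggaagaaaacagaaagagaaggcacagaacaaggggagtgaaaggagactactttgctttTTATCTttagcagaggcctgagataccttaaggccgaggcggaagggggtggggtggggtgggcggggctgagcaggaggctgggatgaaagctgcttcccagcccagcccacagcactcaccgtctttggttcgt
Alas1, chr9:106247905-106248204, minus strand: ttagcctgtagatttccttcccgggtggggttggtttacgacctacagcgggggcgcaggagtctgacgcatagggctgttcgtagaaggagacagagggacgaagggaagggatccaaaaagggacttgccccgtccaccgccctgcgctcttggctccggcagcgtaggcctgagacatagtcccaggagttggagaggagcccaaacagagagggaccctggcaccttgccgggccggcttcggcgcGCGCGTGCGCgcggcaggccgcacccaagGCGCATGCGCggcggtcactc
The Alas2 window held 1 GATA match, at -86 from the start, and no NRF1 match. The Alas1 window held 2 NRF1 matches, at 1 and 30, and no GATA match. A second annotated Alas1 start lies downstream, and its window holds the same 2 NRF1 matches, since the windows share 76 bases. Of 32841 windows of this length in the table, 29.8% held a GATA match and 4.6% an NRF1 match. The Alas2 window had a GC content of 52.3% with 6 CpG dinucleotides, against 65.3% and 27 in the Alas1 window, and the medians over all windows were 52.7% and 7. The motif CCNCNCCC, read by KLF factors, matched 4 times in the Alas2 window, where those at -42, -40 and -35 overlap in part, and 2 times in that of Alas1, and 49.5% of all windows held it.

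Among the 10 windows of the 7 members with an entry used here, GATA matches were also found in those of Cpox and Uros, which are shown for that reason. Cpox had 3 matches and the downstream of the 2 Uros starts had 2. With Alas2 included, the share of the 10 windows with a GATA match was close to the 29.8% of all windows. The matches thus do not set these members apart.
Cpox, chr16:58669958-58670257, plus strand: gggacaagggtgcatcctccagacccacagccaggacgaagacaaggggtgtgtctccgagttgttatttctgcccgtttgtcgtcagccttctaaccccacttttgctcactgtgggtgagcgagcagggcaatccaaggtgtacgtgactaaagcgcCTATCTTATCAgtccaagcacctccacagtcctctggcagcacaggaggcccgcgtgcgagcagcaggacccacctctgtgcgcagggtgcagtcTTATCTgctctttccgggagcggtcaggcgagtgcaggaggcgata
Uros, downstream start, chr7:133702451-133702750, minus strand: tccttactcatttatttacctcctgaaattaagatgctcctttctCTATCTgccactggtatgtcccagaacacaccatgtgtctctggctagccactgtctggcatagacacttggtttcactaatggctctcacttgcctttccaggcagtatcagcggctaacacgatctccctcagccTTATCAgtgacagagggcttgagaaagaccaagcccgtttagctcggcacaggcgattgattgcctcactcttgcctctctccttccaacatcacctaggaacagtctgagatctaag
In the Cpox window the match at -91 overlaps that at -86 by a base, and the third lies at 5. The windows of Fech and Hmox1 were not used here, so the number of members with a match is over 7 of 9. The other Uros window, the 2 Alad windows and those of Urod and Ppox held no GATA match. The upstream Uros window held 1 NRF1 match. A match describes letters in a window and does not show binding.

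All 12 probes were well above background on all 6 arrays and none was saturated, so every member passed the filter on dim probes and no value is a bound. Chd4, which encodes Mi2β, had signals of 9417 to 10943 on the knockdown arrays and of 21115 to 23037 on the control arrays. The log2 change was -1.31 (SE 0.10, limma adjusted p = 0.00161). All 6 arrays shared 1 slide and 1 scan, with replicates 1 and 2 of both groups in slide row 1 and replicate 3 of both in row 2. Knockdown replicates 1 to 3 lay in slide columns 2, 4 and 2 and control replicates 1 to 3 in columns 1, 3 and 1. No column held arrays of both groups, so column and group cannot be told apart. The share of probes well above background was 61.3%, 74% and 48.5% on knockdown replicates 1 to 3 and 53.1% to 56.5% on the control arrays, so the spread was wider in the knockdown group. By limma, 9.56% of the 22133 genes were past an adjusted p of 0.05, with 4.99% higher (rose) and 4.56% lower (fell) in the knockdown, and the groups did not overlap in 31.1% of genes. The median change of all genes was -0.03 on the log2 scale. With the array's 75th percentile taken over the probes detected on all arrays, 62.9% of the changed genes were rises, against 52.2% as reported here. The split went the other way with normexp background correction (46% rises), and without knockdown replicate 1 the fallen genes numbered 256, against 1010 with all arrays.

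The labelled erythroid cell type was checked against a list of markers. All 10 erythroid markers, among them Epor and Slc4a1, were well above background on every array. Their summed level, in units of the array's 75th percentile, was 369 to 435 on the knockdown arrays and 593 to 611 on the control arrays, with 2 of 10 risen and 4 fallen. Most of that difference lay in 1 bright probe, that of Ahsp, which stabilises alpha globin, at 146 to 184 in the knockdown and 334 to 355 in the control. The other 9 markers summed to 220 to 251 in the knockdown and 256 to 260 in the control. Megakaryocyte markers summed to 16.1 to 20.6 in the knockdown and 41 to 46.8 in the control. Of 7 tested, 3 fell and 0 rose in the limma fit. At unadjusted p under 0.05, 1 was higher, Itga2b (1.51, limma adjusted p = 0.0508). Most of the difference between the sums lay in Pf4, at 8.61 to 11.3 in the knockdown and 26.7 to 31.4 in the control. The other 6 megakaryocyte markers summed to 7.46 to 9.32 in the knockdown and 14 to 15.4 in the control. Mast cell markers summed to 2.66 to 3.13 in the knockdown and 0.973 to 1.2 in the control. Of 8 on the array, 3 were above background nowhere. Of 5 tested, 2 rose and 0 fell in the limma fit (0 lower at unadjusted p under 0.05). Of these 2, Tpsab1 was well above background on 3 of 6 arrays. Its signals were 49, 37 and 30 in the knockdown and 4, 8 and 5 in the control. It could pass the filter through the knockdown arrays alone, so its call is not separate evidence. Hdc made up most of the knockdown sum, at 1.87 to 2.41, against 0.462 to 0.596 in the control. The other 4 markers summed to 0.722 to 0.797 in the knockdown and 0.511 to 0.608 in the control. Macrophage markers, relevant because macrophages express Hmox1, summed to 4.05 to 4.38 in the knockdown and 3.81 to 4.06 in the control (1 of 5 tested rose, Cd68), and 3 of 9 on the array were above background nowhere. Without Cd68 the macrophage sum was 1.91 to 2.18 in the knockdown and 2.36 to 2.54 in the control. Granulocyte markers summed to 3.18 to 3.61 in the knockdown and 2.78 to 4.14 in the control (0 of 4 called in the limma fit, 0 at unadjusted p under 0.05). Lymphoid markers summed to 17.2 to 17.9 in the knockdown and 12.4 to 14.2 in the control (1 of 4 rose, Ptprcap, a gene of white blood cells). That difference lay in Ptprcap, with signals of 4234, 3017 and 3752 in the knockdown and of 1349, 1237 and 1671 in the control. Cd3e, Cd4 and Cd79a had changes of -0.05, -0.19 and 0.21, none past the test. In these bulk samples fewer cells of a type and less RNA per cell cannot be told apart. The part of these markers in the results below was not tested.

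**Figure D1:**
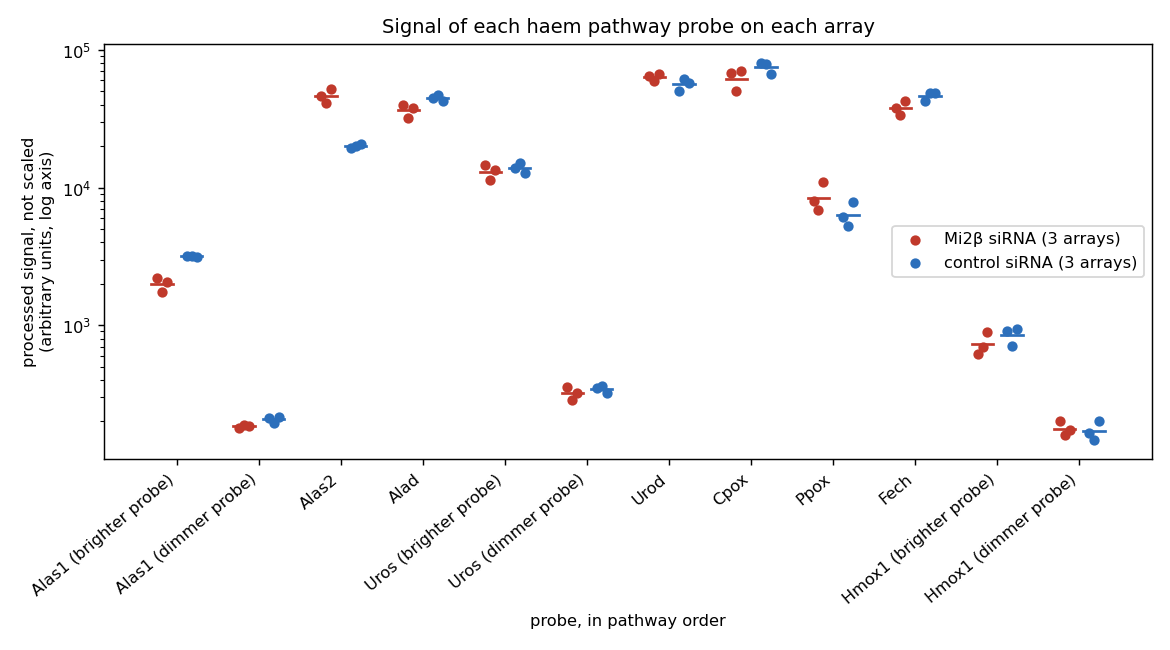
Processed signal, not scaled between arrays, of each of the 12 haem pathway probes (log axis, arbitrary units) on the 3 Mi2β siRNA arrays (red, left of each pair) and the 3 control siRNA arrays (blue, right); lines are geometric means. Alas2 stands higher on every knockdown array, at 40900 to 51700 against 19300 to 20700, and the brighter Alas1 probe lower, at 1750 to 2220 against 3140 to 3180.

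The first step of the pathway changed in both directions, with the erythroid synthase gene higher and the general synthase gene lower in the knockdown. Of the 9 members, 1 rose (Alas2) and 1 fell (Alas1), and 7 did not pass the test. Lower values outnumbered higher ones, at 6 against 3. The members' median change was -0.37, beside -0.03 for all genes tested. The groups did not overlap for 4 members (Alas1, Alas2, Alad and Fech), beside 31.1% of all genes. Members called in either direction made up 2 of 9, beside 9.56% of all genes, numbers too small to set the members apart.

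Alas2 had signals of 46200, 40900 and 51700 on knockdown replicates 1 to 3 and of 19300, 19900 and 20700 on control replicates 1 to 3. Every knockdown array lay above every control array, and the 3 control values lay within a narrow range. After scaling, Alas2 stood at 6.80 ± 0.17 in the knockdown and 5.74 ± 0.05 in the control (SD, n = 3 each, log2 of signal over the 75th percentile of its array). Alas2 rose by 1.06 (SE 0.12, 95% interval 0.77 to 1.35), which is 2.09-fold, with a limma adjusted p = 0.00467 over all genes. Its absolute change was larger than that of 95.2% of the genes tested. Alas2 lies on the X chromosome, and its only probe on this array maps to bases 147004993 to 147005052 of the plus strand (mm9). The call was lost with array median scaling (0.82, limma adjusted p = 0.332). That scaling moved the median of all genes to -0.27, and Alas2 stayed 1.09 above that median, as it did with the reported scaling. The array medians it used ran from 20.6 to 39.7 in the knockdown and from 19.2 to 23.8 in the control. What removed the call was not tested.

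Alas1 was measured by 2 probes, and they differed in the size of the change. The brighter probe had signals of 2220, 1750 and 2050 on the knockdown arrays and of 3160, 3180 and 3140 on the control arrays, with no overlap. In scaled values Alas1 stood at 2.27 ± 0.11 in the knockdown and 3.08 ± 0.08 in the control (SD, n = 3 each). Alas1 fell by 0.81, log2 (SE 0.10, 95% interval -1.06 to -0.56), 1.75-fold lower, with a limma adjusted p = 0.00728. The dimmer probe had signals of 179, 189 and 184 on the knockdown arrays and of 211, 194 and 216 on the control arrays. These groups did not overlap either, and the change was -0.32 (SE 0.11, 95% interval -0.57 to -0.06), not past the test over all probes (limma adjusted p = 0.146, beside 8.19% of probes called). Both probes match the same RefSeq transcript on the minus strand of chromosome 9, the brighter from base 2144 of the transcript (106136284 to 106136343, mm9) and the dimmer from base 2632 (106135796 to 106135855). The Alas1 call was lost within slide row 1 (-0.88, adjusted p = 0.0583) and with array median scaling (-1.04, adjusted p = 0.119), and the mean over both probes gave -0.56.

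The opposite movement of the 2 synthases can be read within each array, where the scaling drops out. The log2 value of the Alas2 probe minus that of the brighter Alas1 probe was 4.38, 4.55 and 4.66 on knockdown replicates 1 to 3 and 2.61, 2.64 and 2.72 on control replicates 1 to 3. Its mean was 4.53 ± 0.14 in the knockdown and 2.66 ± 0.06 in the control (SD, n = 3 each). The difference between the groups was 1.87, a 3.65-fold shift of the ratio, and it lay between 1.62 and 1.94 under the 20 alternatives. Alternatives that only rescaled whole arrays, changed the filter, or added a block or trend could not move it. The range thus describes only the remaining alternatives. Against the dimmer Alas1 probe the shift was 1.38. The differences show unequal change between probes and say nothing of which transcript was the more abundant, since the probes' brightness is not comparable.

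**Figure D2:**
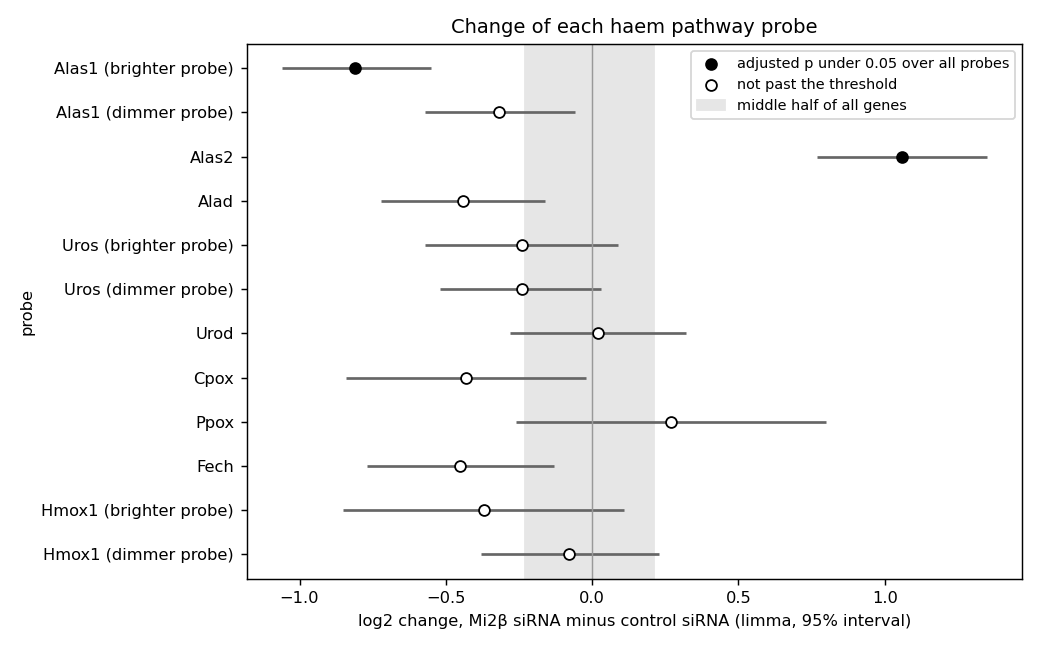
Log2 change of each of the 12 probes, Mi2β siRNA minus control siRNA, from limma on all detected probes, with 95% intervals; filled points passed an adjusted p of 0.05 over all probes, open points did not, and the grey band is the interquartile range of all genes (-0.23 to 0.21). The brighter Alas1 probe at -0.81 and the Alas2 probe at 1.06 lie apart on either side, and 10 intervals belong to probes not past the threshold.

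The next steps run in the cytosol. Alad, which joins aminolevulinate molecules into the pyrrole porphobilinogen, had signals of 39600, 32200 and 38000 on the knockdown arrays and of 45000, 46700 and 42600 on the control arrays. All 3 knockdown values lay below all control values. The change was -0.44 on the log2 scale (SE 0.11, 95% interval -0.72 to -0.17), not past the test over all genes (limma adjusted p = 0.0671, unadjusted p = 0.0079). Under 6 of 20 alternatives it was called, with values of -0.44 to -0.35. The Alad probe maps to chromosome 4, bases 62172559 to 62172618 (mm9, minus strand).

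Uros, which closes the ring as uroporphyrinogen III, had 2 probes with the same change. The brighter, on the RefSeq transcript, had signals of 14600, 11300 and 13400 in the knockdown and of 13800, 15200 and 12800 in the control, which overlap. The change was -0.24 (SE 0.13, 95% interval -0.56 to 0.08, limma adjusted p = 0.344). The dimmer probe, on a cDNA clone from the same gene, had signals of 356, 288 and 321 in the knockdown and of 348, 359 and 324 in the control and gave -0.24 as well (limma adjusted p = 0.275 over all probes), with no overlap after scaling. Both map to the minus strand of chromosome 7 (mm9), the brighter at bases 140878069 to 140878128 and the dimmer at 140883818 to 140883876.

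Urod, the decarboxylase that follows, had signals of 64500, 59200 and 66400 in the knockdown and of 50500, 61200 and 57800 in the control. The scaled groups overlapped, and the change was 0.02 (SE 0.12, limma adjusted p = 0.936). Its 95% interval ran from -0.27 to 0.31, so a rise of up to 1.24-fold was within it. The sign was not stable, with -0.21 under array median scaling. The Urod probe lies on chromosome 4, bases 116662850 to 116662909 (mm9).

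The later steps return to the mitochondrion. Cpox, coproporphyrinogen oxidase, had signals of 68000, 50000 and 70000 in the knockdown and of 80600, 79500 and 67400 in the control. The groups overlapped through knockdown replicate 3 and control replicate 3, and the change was -0.43 (SE 0.16, 95% interval -0.84 to -0.03, limma adjusted p = 0.182). Ppox, which oxidises protoporphyrinogen, had signals of 7990, 6850 and 11000 in the knockdown and of 6130, 5240 and 7850 in the control. The change was 0.27 (SE 0.22, 95% interval -0.26 to 0.80, limma adjusted p = 0.52), with the widest interval of the 9 members. The Cpox probe spans bases 58680403 to 58680465 of chromosome 16 and the Ppox probe bases 173207452 to 173207629 of chromosome 1 (mm9). In both groups the Ppox value of replicate 3, the array in slide row 2, was the highest.

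Fech, ferrochelatase, which inserts iron into protoporphyrin as the last step, had signals of 38000, 33500 and 42400 in the knockdown and of 42600, 48500 and 49000 in the control. All scaled knockdown values lay below all scaled control values, and the change was -0.45 (SE 0.13, 95% interval -0.76 to -0.14). It did not pass the test (limma adjusted p = 0.0889, unadjusted p = 0.0124). Fech lies on chromosome 18. Alad, Cpox and Fech thus had changes of like size, -0.45 to -0.43, each with an unadjusted p under 0.05, none past the test, and 13.4% of all genes were lower in the knockdown at an unadjusted p under 0.05.

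Breakdown was represented by Hmox1, a gene known to be induced by haem and oxidative stress. Its brighter probe had signals of 619, 696 and 890 in the knockdown and of 913, 708 and 938 in the control, which overlap. The change was -0.37 (SE 0.19, 95% interval -0.84 to 0.11, limma adjusted p = 0.322), and it ranged from -0.66 to -0.20 over 20 alternatives. The dimmer probe, nearer the transcript's start (from base 324, against base 1290), had signals of 202, 160 and 172 in the knockdown and of 164, 146 and 202 in the control. It gave -0.08 (SE 0.12, 95% interval -0.38 to 0.23, limma adjusted p = 0.768 over all probes). Both lie on chromosome 8 (mm9), the brighter at bases 77624207 to 77624266 and the dimmer at 77620797 to 77620856.

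The order of the knockdown arrays was alike for many members. In scaled values, knockdown replicate 3 was the highest of the 3 for all 9 members and knockdown replicate 2 the lowest for 7 of 9, beside 29.4% and 30.7% of all genes. Knockdown replicate 3 had the smallest share of probes well above background and knockdown replicate 2 the largest. With quantile normalization knockdown replicate 3 was still the highest for 8 of 9 members, beside 36.3% of all genes. Knockdown replicate 2 was then the lowest for 4 of 9, beside 38.1% of all genes, and knockdown replicate 1 for 5 of 9, beside 28.1%, and cyclic loess gave the same counts of members. Control replicate 2 was the highest of its group for 7 of 9 members with the reported scaling, beside 39.1% of all genes, and for 4 of 9 with quantile normalization, beside 35.5%.

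**Figure D3:**
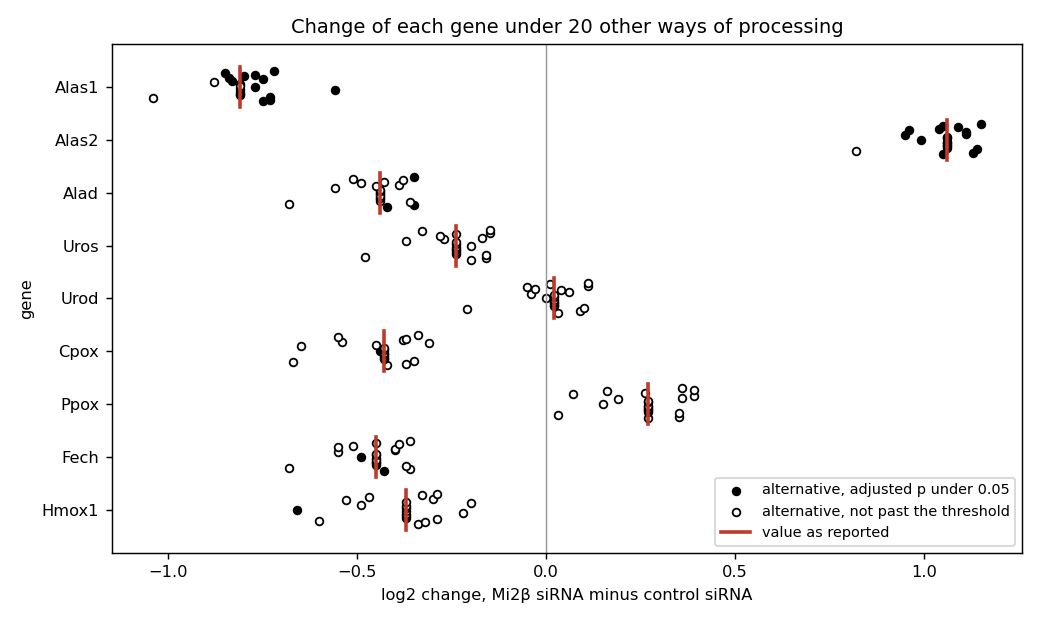
Log2 change of each of the 9 genes, Mi2β siRNA minus control siRNA, as reported (red line) and under each of 20 other ways of processing (points, filled where the adjusted p was under 0.05). Alas2 stays at 0.82 to 1.15 and Alas1 at -1.04 to -0.56, while Urod spans -0.21 to 0.11.

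Genes around the enzymes were taken from 6 lists: transporters and mitochondrial partners, haem breakdown and sensing, iron-sulphur assembly and iron sensing, supply of glycine and succinyl-CoA, oxidative stress genes known with Hmox1, and factors known to act on the synthases. Of 72 genes tested in the 6 lists together, 4 rose and 6 fell, which is 13.9%, beside 9.56% of all genes. Their median change was -0.06.

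Among transporters and mitochondrial partners of haem synthesis, 2 of 15 rose and 2 fell, which is 26.7%, beside 9.56% of all genes (median -0.12). Fam210b, a mitochondrial protein that aids iron import for haem synthesis, had signals of 3842, 3317 and 3903 in the knockdown and of 1845, 1790 and 2125 in the control and rose by 0.80 (SE 0.10, limma adjusted p = 0.00715), a call lost with array median scaling, the replicate block (adjusted p = 0.0527) and within slide row 1. Pgrmc1, a haem-binding partner of ferrochelatase, had signals of 5873, 4591 and 4568 in the knockdown and of 2961, 3032 and 3213 in the control and rose by 0.55 (SE 0.10, limma adjusted p = 0.025). Abcb10, a mitochondrial inner membrane transporter, fell by 0.89 (SE 0.19, limma adjusted p = 0.0437), and Slc25a38, the mitochondrial glycine carrier, fell by 0.50 (SE 0.10, limma adjusted p = 0.03). Each of the Pgrmc1 and Slc25a38 calls was lost without any of the 6 arrays, and the Abcb10 call without any of them except control replicate 3. Slc25a39 had a change of -0.59 and was not past the test.

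In the iron-sulphur and iron sensing list, 1 of 16 rose and 1 fell, which is 12.5%, beside 9.56% of all genes (median -0.01). Aco1, the cytosolic aconitase that binds iron-responsive elements when it lacks its cluster, had signals of 93, 105 and 110 in the knockdown and of 277, 249 and 232 in the control. It fell by 1.44 (SE 0.15, limma adjusted p = 0.00394), 2.72-fold, and was called under all 20 alternatives. The Alas2 messenger RNA is known to carry an iron-responsive element. Any link between the changes of Aco1 and Alas2 was not tested. Fdx2, a mitochondrial ferredoxin, rose by 0.42 (SE 0.09, limma adjusted p = 0.0366), a call lost without any single array, and Fdx1 and Hscb had changes of 0.38 and -0.48, not past the test.

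The oxidative stress list had 1 of 14 risen and 1 fallen, which is 14.3%, beside 9.56% of all genes (median -0.20). Nqo1, a quinone reductase, had signals of 362, 361 and 324 in the knockdown and of 804, 845 and 814 in the control and fell by 1.38 (SE 0.10, limma adjusted p = 0.00141), a call kept under all 20 alternatives. Prdx1, a peroxiredoxin, had signals of 48473, 42502 and 41130 in the knockdown and of 21479, 22504 and 22030 in the control and rose by 0.85 (SE 0.09, limma adjusted p = 0.00463), also a call lost with array median scaling and within slide row 1. Srxn1 and Mafk had changes of -0.46 and -0.42, not past the test.

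Of 7 regulators known for the synthases, 2 fell and 0 rose in the limma fit (median -0.35), beside 4.56% fallen among all genes. At unadjusted p under 0.05, 4 were lower and 0 higher, beside 13.4% of all genes lower. Nfe2, a subunit of the factor NF-E2, had signals of 23399, 20059 and 26591 in the knockdown and of 35880, 31480 and 41724 in the control and fell by 0.78 (SE 0.14, limma adjusted p = 0.0235). Tal1, a partner of GATA-1 on DNA, fell by 0.50 (SE 0.11, limma adjusted p = 0.0424). The Tal1 call was lost without any single array and the Nfe2 call without any except knockdown replicate 3. The Gata1 probe had a change of -0.41 and Lonp1, a mitochondrial protease known to degrade the Alas1 protein, of -0.35, neither past the test. These cells lack GATA-1 of their own and carry the introduced fusion. Which transcript the Gata1 probe read was not tested.

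The other 2 lists had no call, beside 9.56% of all genes called. Of 10 genes of haem breakdown, use and sensing, 0 were called in the limma fit (2 higher and 1 lower at unadjusted p under 0.05), and the median was 0.12. The largest changes were those of Hpx (0.64), Nr1d2 (0.46), Blvra (-0.37), a biliverdin reductase that acts after haem oxygenase, and Cox10 (0.27). Hpx and Nr1d2 were dim, with signals of 21 to 50 and of 35 to 62. With normexp background correction their changes were 0.16 and 0.08, and that of Blvra was -0.35. Of 10 genes that supply glycine and succinyl-CoA, 0 were called in the limma fit (2 higher and 2 lower at unadjusted p under 0.05), and the median was 0.15. Here Slc6a9, a plasma membrane glycine transporter, had a change of -0.49, Shmt2, the mitochondrial serine hydroxymethyltransferase, of -0.43, Suclg2 of 0.41 and Gldc of 0.33.

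**Figure D4:**
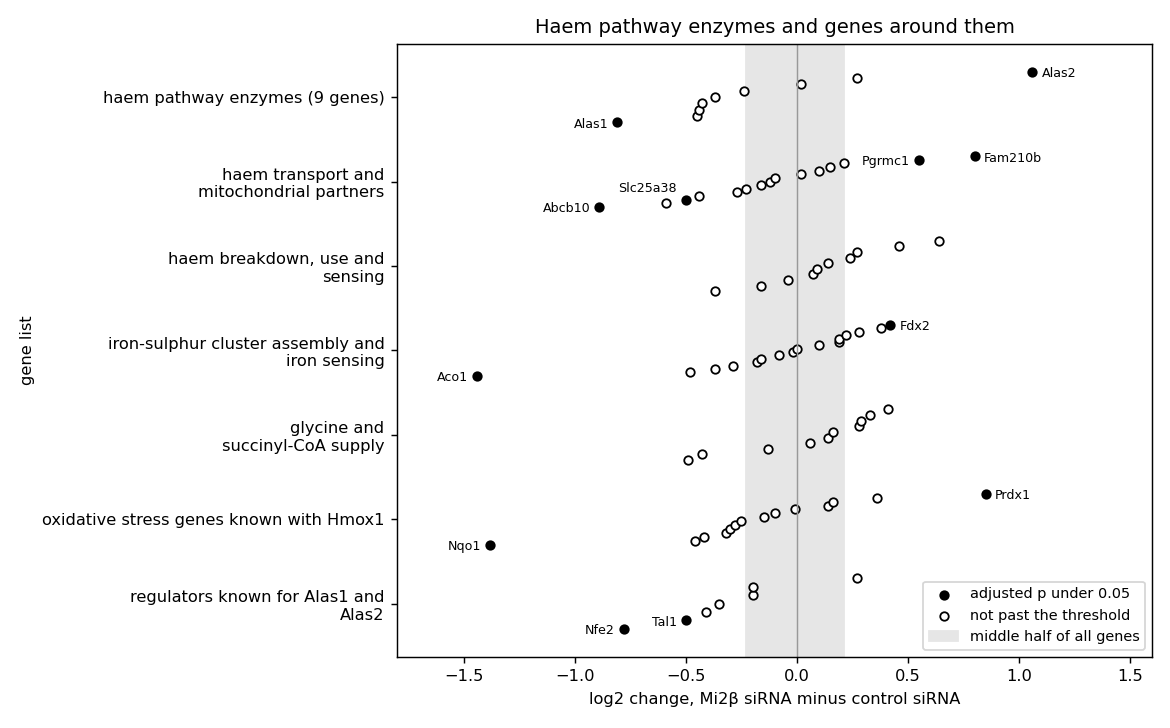
Log2 change, Mi2β siRNA minus control siRNA, of the 9 haem pathway enzymes and of the tested genes of 6 lists around them (a point per gene, filled and named where the limma adjusted p over all genes was under 0.05; the grey band is the interquartile range of all genes). Named points lie on both sides of 0, from Aco1 at -1.44 to Alas2 at 1.06.

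Patterns like those of the synthases across the 6 arrays were found in many genes. The genes with a symbol whose log2 values correlated most closely with Alas2 were Fabp5 (Pearson r = 0.9991), a fatty acid binding protein, Icam4 (0.9989), a red cell adhesion protein, and Clca3a1 (0.9975). For Alas1 they were Sys1 (0.9994), Apobec1 (0.9994), an RNA-editing deaminase, and Esyt1 (0.9991). Correlations above 0.99 were reached by 70 genes for Alas2 and 112 for Alas1. All points share the same 6 arrays in 2 groups, so these values describe likeness over the arrays only.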

How the data were processed

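Total RNA (0.1 µg) was labelled with Cy3 and hybridised to 1-colour Agilent arrays, a sample to an array. Per the file headers, the deposited intensity values were made with Agilent Feature Extraction 10.7.3.1, which subtracted background within the array and put small surrogates in place of signals not above the negative controls; flags for signals well above background, saturation and outliers came with them. limma is also named in the submitters' processing notes, with settings not given in the sources used here. Intensities in the deposited table of values were those of the scanner files, linear and not centred (100% agreed within 0.01 or a relative 1e-4).

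Here, control spots and outlier-flagged spots were left out, log2 intensity minus the array's 75th percentile over non-control spots was taken, probes were kept where 3 or more of 6 arrays had them well above background (31853, after 36 with flagged spots were left out) and the brightest probe stood for its gene. Names were updated through RefSeq accessions of GRCm38.p6 (27509 of 29150 matched), and probe coordinates are mm9, whose genome was not used, so exons and UTRs under probes are not given. The 2 groups were compared in R 4.3.3 by limma 3.58.1 (two-sided, without covariates, by lmFit and then eBayes), p-values being adjusted by Benjamini-Hochberg across all genes or all probes, at a threshold of 0.05. The fit was tested on simulated data. The number of arrays limits the precision. The 20 alternatives were other background correction, scalings, filters and probe rules, the deposited table, an intensity trend, array weights, the replicate number or slide row as a block, slide row 1 alone, each array left out, and cyclic loess.

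The members and lists were chosen with earlier results of these data known. The text names the 9 members, Chd4, up to 4 genes of each pathway list by size of change plus those past the test, and the 3 genes most correlated with each synthase. Marker genes named as examples, and Ahsp, Pf4, Itga2b, Tpsab1, Hdc, Cd68 and the lymphoid markers, were named after their values were seen. The labels do not say whether replicate numbers pair the samples. Deviations from the group means of same-numbered samples correlated at 0.21, -0.32 and 0.13, and those of other-numbered samples at -0.41 to 0.32. With 3 samples per group these values cannot decide whether the samples were paired.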

Additional observations from a re-analysis of the deposited data

How the results depend on the processing

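Of 180 recomputed changes of the 9 members, 161 kept direction and side of the threshold, 11 became calls, 4 lost theirs and 4 changed sign. Part of this was fixed in advance. The deposited table held the scanner's values, so with it neither could change. The other filters, the blocks and the intensity trend left the log2 changes as they were, so with them only the side of the threshold could move. The sign changes were all of Urod: -0.21 with array median scaling, -0.04 within slide row 1, -0.03 without knockdown replicate 3 and -0.05 without control replicate 1 (-0.05 to 0.11 over the 6 arrays left out in turn). Besides Alas2 with median scaling (0.82), the lost calls were of Alas1, with median scaling (-1.04), the replicate block (-0.81, adjusted p = 0.0683) and slide row 1 alone (-0.88). Alas1 and Alas2 stayed called with each of the 6 arrays left out (2 members each time, adjusted p at most 0.0431). Calls gained were of Alad (6 alternatives), Fech (3), Cpox (1) and Hmox1 (1), with normexp, quantile normalization, cyclic loess (chosen after seeing the data), array weights, an intensity trend or a filter requiring all 6 arrays. Rises made up 46%, 45.9%, 46.1% and 46.1% of changed genes with normexp, an intensity trend, array weights and the filter of 6 arrays, and 52.2% as reported. The counts below are given for changed genes (2115 as reported), members (2), member probes (2) and the other pathway genes (10), in that order. They were 790, 0, 0 and 2 with median scaling and 685, 1, 0 and 3 with the replicate block, whose numbers are no pairing in the labels. Within slide row 1 they were 720, 1, 0 and 3, with an intensity trend 3306, 4, 4 and 22, and with array weights 4729, 6, 7 and 28. Without a filter 993 genes, 1 member probe and 4 pathway genes were called; with normexp 4 members, 4 probes and 20 pathway genes; and with the slide row as a block 6 pathway genes. With an array left out in turn the counts ran from 813 to 1579 genes, from 1 to 2 member probes and from 4 to 5 pathway genes. The 1 probe was reached without knockdown replicate 1, which also gave the lowest gene count; without knockdown replicate 2, control replicate 1 or control replicate 2 it was 1163, 1063 or 1150. Chd4 was called under all 20 alternatives (-1.55 to -1.22). Signal over background limited none of the 12 probes; the dimmer Alas1, Uros and Hmox1 probes lay nearest to it.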
